A study of Mus musculus with 10 samples.

Results

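Autophagy carries cytoplasm to the lysosome for breakdown, and 32 mouse genes of this route were followed here across 5 groups of arrays. They are 21 autophagosome genes, 9 lysosomal genes and the transcription factor genes Tfeb and Tfe3, taken by name and found through the RefSeq accessions of the array's gene probes, out of 19752 genes named in the same way. The autophagosome genes comprise the LC3 and GABARAP family, cargo receptors, initiation and nucleation factors, and the enzymes that attach LC3 to lipid. The lysosomal genes comprise proteases, glycosidases and membrane proteins.

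In autophagy, the ULK1 kinase and the class III phosphatidylinositol 3-kinase complex start a membrane, ubiquitin-like conjugation fixes LC3 and GABARAP proteins to it, and receptors such as p62 bring cargo. The closed autophagosome fuses with the lysosome, whose acid hydrolases digest the content. PERK is an endoplasmic reticulum kinase that phosphorylates the translation factor eIF2α, and the transcription factors made under that signal, ATF4 and CHOP, are known to act on several autophagy genes. TFEB and TFE3 are known as transcription factors of lysosomal genes, and muscle is a tissue that raises autophagy on fasting, denervation and other stresses.

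The 3 muscle groups came from male C57BL/6J mice, with 2 arrays each: wild type without treatment, hSA::Fv2E-PERK transgenic injected with vehicle, and the same transgenic genotype injected with AP20187 at 1 ng/g. The 2 cell groups, also with 2 arrays each, were C2C12 cells carrying Fv2E-PERK, a mouse myoblast line grown in 10% fetal bovine serum and kept for 3 days in 2% horse serum to differentiate, then given vehicle or 100 nM AP20187. Injected mice and treated cells were sampled 12 h after treatment. Fv2E-PERK is the PERK kinase joined to a domain that AP20187 dimerises, so that the drug switches the kinase on without endoplasmic reticulum stress, and hSA is the human skeletal actin promoter, which drives the transgene in muscle fibres. The wild type mice were not injected, so the transgene and the injection cannot be told apart in a comparison with them. The ages of the mice and the muscle taken are not given in the labels used here. The labels do not say whether replicates were separate animals or cultures, and p-values then measure only the spread between these arrays.

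Levels below are log2 of the processed spot intensity minus the array's 75th percentile of it, so 0 is that percentile. They compare 1 gene between arrays and not different genes with each other. Between 41.0% and 53.1% of gene spots were well above background on an array, and all 32 genes were so on all 10 arrays. The signal-response genes Ddit3 (CHOP), Atf3, Ppp1r15a (GADD34) and Trib3 were higher with AP20187 than with vehicle in transgenic muscle, with log2 changes of 3.09, 3.46, 4.01 and 1.48. Trib3 was already 215-fold higher in transgenic vehicle than in wild type muscle, and Ddit3 was 3.80-fold and Atf3 4.07-fold higher. In C2C12, Atf3 (2.71-fold) and Trib3 (2.05-fold) were called higher with AP20187, while Ddit3 (1.45-fold, adjusted p = 0.12) and Ppp1r15a (1.49-fold, adjusted p = 0.14) were not. The Atf3 call ended without C2C12 vehicle replicate 2 (adjusted p = 0.053). The skeletal muscle markers Acta1, Tnni2 and Tnnt3 were well above background on all 10 arrays, and the summed level of the muscle marker list was 9831 to 12440 on muscle arrays and 861 to 1208 on C2C12 arrays. In whole tissue, fewer cells of a type and less RNA per cell cannot be told apart.

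**Figure D1:**
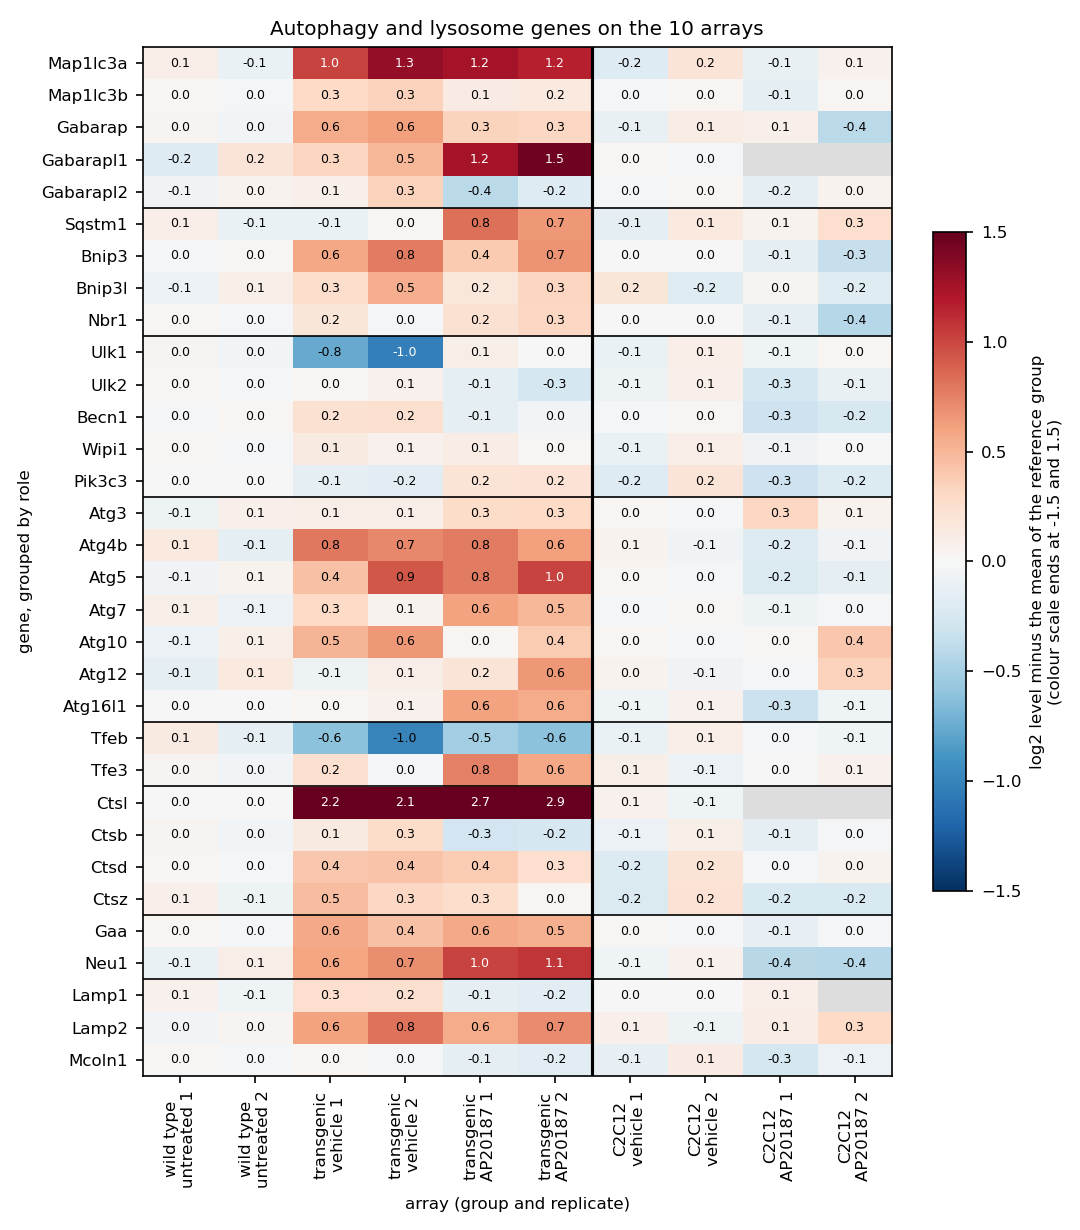
Rows are the 32 genes grouped by role and columns the 10 arrays. Colour and number give the log2 level minus the mean of the wild type arrays (6 muscle columns) or of the C2C12 vehicle arrays (4 cell columns), and grey cells are spots with an outlier flag. Ctsl and Map1lc3a are high on all 4 transgenic muscle arrays, Ulk1 is low on the vehicle arrays only among the muscle columns, and the C2C12 AP20187 columns stay close to their vehicle columns.

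In transgenic vehicle muscle against wild type, 16 of the 32 genes were called at an adjusted p under 0.05 (limma, Benjamini-Hochberg adjustment over all 13541 genes tested), 14 higher and 2 lower, against 38.3% of all genes called. Calls among all genes ran to 25.7% higher and 12.6% lower. The median log2 change of the 32 genes was 0.24, beside 0.09 for all genes. The lysosomal genes gave 6 higher and 0 lower of 9, with a median of 0.41, and the autophagosome genes 8 higher and 1 lower of 21, with a median of 0.21. Without wild type replicate 1 the count was 10, and quantile normalization also left 10, as 7 higher and 3 lower. By quantile normalization the lysosomal genes gave 3 higher and 1 lower, with a median of -0.027, and the autophagosome genes 4 higher and 1 lower, with a median of 0.053.

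Adding AP20187 to the transgenic mice gave calls for 12 of the 32 genes, 8 higher and 4 lower, against 29.3% of all genes called (14.3% higher and 15% lower). The median over the 32 genes was 0.0030 and that over all genes -0.11. The autophagosome genes gave 5 higher and 2 lower of 21, with a median of 0.05. Calls among the lysosomal genes were 2 higher and 2 lower of 9, with a median of -0.10. The count fell to 6 without transgenic vehicle replicate 2 and to 7 without transgenic AP20187 replicate 1. A share of 12 in 32 lies near that of all genes, so the sections that follow concern single genes and not the list.

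Set directly against wild type, AP20187-treated transgenic muscle had 16 genes higher and 2 lower of 32, with 52.2% of all genes called in that comparison (29.6% higher and 22.6% lower). The median was 0.30, beside 0.04 for all genes. Quantile normalization gave 12 higher and 6 lower. These 3 muscle comparisons share arrays pairwise, so a value high or low on the vehicle arrays enters 2 of them with opposite sign. Groups of 2 arrays often do not overlap. Of 13539 genes compared, 3678 had both AP20187 arrays above both vehicle arrays and 5587 below, beside 13 and 11 of the 32. For vehicle against wild type, 5799 of 13540 were above and 3857 below, beside 22 and 3 of the 32. For AP20187 against wild type, 5644 were above and 4874 below, beside 22 and 7. Over the 21 autophagosome genes, the mean log2 level was 2.91 and 2.93 in wild type, 3.15 and 3.22 in vehicle and 3.28 and 3.34 in AP20187 muscle. Over the 9 lysosomal genes it was 5.10 and 5.08, then 5.67 and 5.67, then 5.64 and 5.64. Both means were higher on all 4 transgenic arrays than on the wild type arrays. From wild type to vehicle the mean change was 0.26 for the autophagosome genes and 0.58 for the lysosomal genes. By quantile normalization it was 0.07 and 0.22. Among the 9 lysosomal genes, Ctsl had by far the largest of these changes (2.12). From vehicle to AP20187 the mean change was 0.13 for the autophagosome genes and -0.033 for the lysosomal genes, and by quantile normalization it was 0.20 and 0.14, so the sign of the lysosomal mean depended on the scaling.

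**Figure D2:**
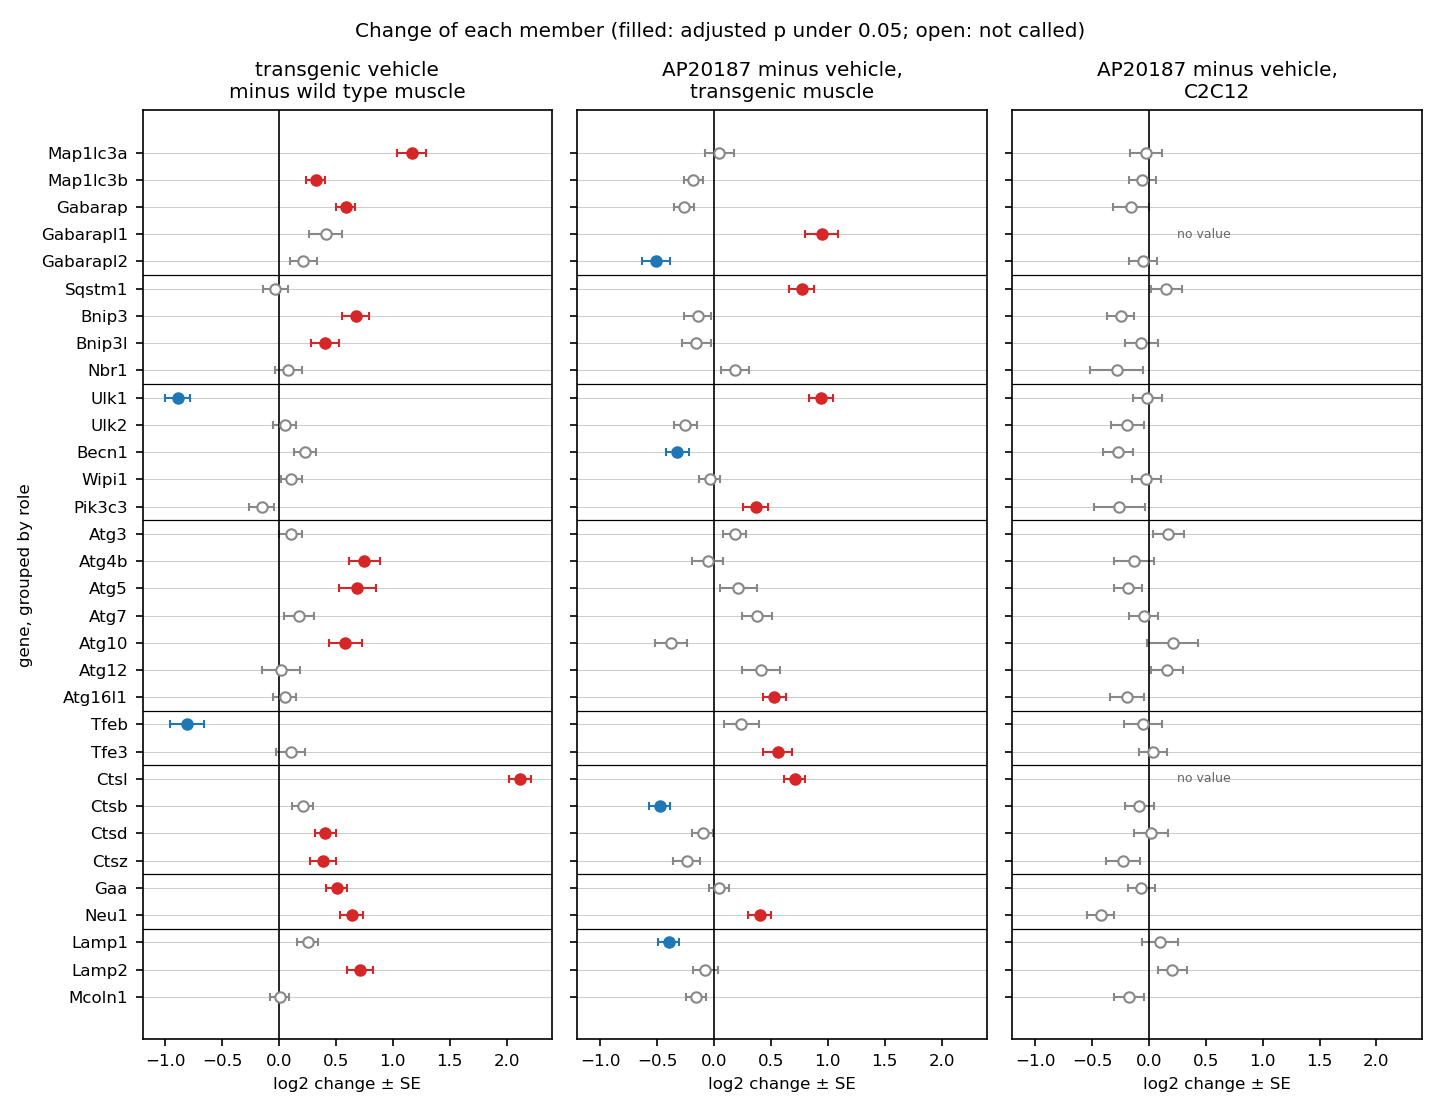
Each row is a gene and each point a log2 change with its standard error from limma, for transgenic vehicle minus wild type muscle (left), AP20187 minus vehicle in transgenic muscle (middle) and AP20187 minus vehicle in C2C12 (right). Filled points passed an adjusted p under 0.05. The left panel has 14 filled points above 0 and 2 below, the middle panel 8 and 4, and the right panel none.

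The LC3 and GABARAP proteins are the ubiquitin-like proteins that sit on the autophagosome membrane and bind cargo receptors. Map1lc3a, which encodes LC3A, lay at 5.57 and 5.37 in wild type, 6.48 and 6.79 in vehicle and 6.72 and 6.64 in AP20187 muscle. The transgenic arrays were all above the wild type ones, and the vehicle and AP20187 arrays overlapped. Its level in vehicle muscle was 2.25-fold that in wild type (log2 change 1.17, SE 0.13, adjusted p = 0.00059), and AP20187 changed it by 0.05 (SE 0.13, adjusted p = 0.81). Gabarapl1, known as a FoxO target in muscle, was at 5.08 and 5.46 in wild type, 5.59 and 5.77 in vehicle and 6.52 and 6.73 in AP20187 muscle. Every AP20187 array stood above every other muscle array, and the rise over vehicle was 1.93-fold (SE of the log2 change 0.15, adjusted p = 0.0040).

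The rest of that family moved less. Gabarapl2, which encodes GATE-16, read 5.09 and 5.19 in wild type, 5.22 and 5.49 in vehicle and 4.74 and 4.95 in AP20187 muscle. It fell by 0.51 (SE 0.12, adjusted p = 0.019) with AP20187, with no overlap between those groups, so Gabarapl1 and Gabarapl2 moved in opposite directions on the same arrays. That call ended without transgenic vehicle replicate 2 (-0.38, adjusted p = 0.097) or transgenic AP20187 replicate 1 (-0.40, adjusted p = 0.092). Gabarap was at 5.61 and 5.53, 6.13 and 6.18, and 5.90 and 5.88 in the same order of groups. It was 1.5-fold higher in vehicle than in wild type muscle (adjusted p = 0.0018), and its change with AP20187 was -0.26 (adjusted p = 0.051). Map1lc3b, which encodes the LC3B commonly used as an autophagy marker, was at 5.77 and 5.73, 6.05 and 6.09, and 5.87 and 5.90. Its vehicle value was 1.25-fold that of wild type (adjusted p = 0.020), a difference that turned to -0.06 by quantile normalization and was not called without either wild type replicate (adjusted p = 0.085 and 0.12) or without vehicle replicate 2 (adjusted p = 0.070).

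Cargo receptors link ubiquitin or mitochondria to LC3. Sqstm1, which encodes p62, was at 5.08 and 4.87 in wild type, 4.88 and 5.0 in vehicle and 5.80 and 5.63 in AP20187 muscle. Vehicle and wild type arrays overlapped, and the AP20187 arrays were above both. The rise over vehicle was 1.71-fold (log2 change 0.77, SE 0.11, adjusted p = 0.0032), whereas vehicle differed from wild type by -0.03 (adjusted p = 0.84). The mitophagy receptor Bnip3 read 6.34 and 6.37, 6.94 and 7.13, and 6.75 and 7.03, and its relative Bnip3l (NIX) 3.50 and 3.67, 3.85 and 4.13, and 3.76 and 3.91. Both were higher in vehicle than in wild type muscle, by 1.60-fold (adjusted p = 0.0039) and 1.32-fold (adjusted p = 0.036), and neither was called with AP20187 (-0.14 and -0.15). The Bnip3l call ended without either wild type replicate (adjusted p = 0.19 and 0.061) or without vehicle replicate 2 (adjusted p = 0.19). Nbr1, a p62-like receptor, was called in none of the muscle comparisons (0.08 in vehicle against wild type, 0.18 with AP20187).

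Initiation and nucleation genes start the membrane. Ulk1 encodes the kinase at the top of the pathway, and it was at 4.98 and 4.90 in wild type, 4.18 and 3.92 in vehicle and 5.03 and 4.95 in AP20187 muscle. The vehicle arrays were lowest, and the wild type and AP20187 arrays overlapped. Ulk1 was thus 1.85-fold lower in vehicle than in wild type (log2 change -0.89, SE 0.11, adjusted p = 0.00088) and 1.92-fold higher with AP20187 than with vehicle (log2 change 0.94, SE 0.11, adjusted p = 0.0014). Those comparisons share the vehicle arrays, and AP20187 against wild type, which does not use them, gave 0.05 (adjusted p = 0.72). Pik3c3, the catalytic subunit of the class III kinase, was at 0.27 and 0.25, 0.12 and 0.10, and 0.46 and 0.48, and rose 1.29-fold with AP20187 (adjusted p = 0.039). Becn1, its Beclin 1 partner, was at 1.39 and 1.46, 1.65 and 1.66, and 1.28 and 1.38, and fell by 0.32 with AP20187 (adjusted p = 0.046). Each of these small and opposite calls in 1 complex ended without any 1 of the 6 muscle arrays, with adjusted p of 0.066 to 0.14 for Pik3c3 and 0.075 to 0.19 for Becn1. Ulk2, the second ULK kinase, and Wipi1, which binds the phosphoinositide made by the complex, were not called in any of the muscle comparisons, with changes between -0.25 and 0.11, although a dimmer Ulk2 probe gave -0.63 in vehicle against wild type, where the probe used gave 0.05.

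The conjugation enzymes activate, transfer and trim LC3. Atg16l1, the scaffold that brings the conjugation machinery to the membrane, was at 0.73 and 0.74 in wild type, 0.77 and 0.80 in vehicle and 1.34 and 1.29 in AP20187 muscle. The AP20187 arrays stood apart from 4 closely spaced others, with a 1.44-fold rise over vehicle (log2 change 0.53, SE 0.10, adjusted p = 0.0087). Atg5, part of the same complex, read 2.25 and 2.36, 2.74 and 3.24, and 3.09 and 3.32. It was 1.61-fold higher in vehicle than in wild type muscle (adjusted p = 0.014) with no call for AP20187 (0.21). The Atg5 call ended without wild type replicate 1 (adjusted p = 0.072) or vehicle replicate 2 (adjusted p = 0.066). The LC3-cleaving protease gene Atg4b read -0.02 and -0.31, 0.63 and 0.55, and 0.62 and 0.45, which is a 1.68-fold difference between vehicle and wild type (adjusted p = 0.0046) and a change of -0.06 with AP20187.

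Among the other conjugation genes, Atg10, the E2-like enzyme for ATG12, was at 0.71 and 0.88, 1.31 and 1.44, and 0.82 and 1.17. It was 1.5-fold higher in vehicle than in wild type muscle (adjusted p = 0.015), and its change with AP20187 was -0.38 (adjusted p = 0.080). Without wild type replicate 1 or vehicle replicate 2 the Atg10 difference was not called (adjusted p = 0.090 and 0.089). Atg7, the E1-like enzyme, was at 0.38 and 0.21, 0.59 and 0.35, and 0.90 and 0.79, and Atg3, the E2-like enzyme for LC3, was at 1.66 and 1.81, 1.84 and 1.84, and 2.01 and 2.03. Neither was called in the step from wild type to vehicle or from vehicle to AP20187, but the AP20187 arrays were above wild type by 1.46-fold for Atg7 (adjusted p = 0.0096) and 1.22-fold for Atg3 (adjusted p = 0.044). The Atg7 call ended without wild type replicate 2 (adjusted p = 0.061), and that of Atg3 without any 1 of the 6 muscle arrays (adjusted p = 0.062 to 0.24). A second probe of Atg7 gave another order, with 0.61 in vehicle against wild type and -0.04 with AP20187. Atg12, the ubiquitin-like partner of ATG5, was not called (0.41 with AP20187, adjusted p = 0.10), and its second probe read -0.08.

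Tfeb and Tfe3 encode related factors that bind the same lysosomal gene element. Tfeb was at 2.91 and 2.63 in wild type, 2.16 and 1.77 in vehicle and 2.25 and 2.16 in AP20187 muscle, so that all 4 transgenic arrays were below both wild type arrays. It was 1.75-fold lower in vehicle than in wild type muscle (log2 change -0.81, SE 0.15, adjusted p = 0.0051) and not called with AP20187 (0.24, adjusted p = 0.26). Tfe3 was at 1.58 and 1.49, 1.78 and 1.5, and 2.29 and 2.11. Its AP20187 arrays were above the rest, a 1.48-fold rise over vehicle (log2 change 0.56, SE 0.13, adjusted p = 0.016) that was not called without vehicle replicate 2 (0.42, adjusted p = 0.089) or AP20187 replicate 1 (0.47, adjusted p = 0.076). A dimmer Tfe3 probe gave 0.48 for that step but -0.46 for vehicle against wild type, where the probe used gave 0.10. RNA levels of these genes say nothing of whether the proteins were in the nucleus, which is how they are chiefly regulated.

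**Figure D3:**
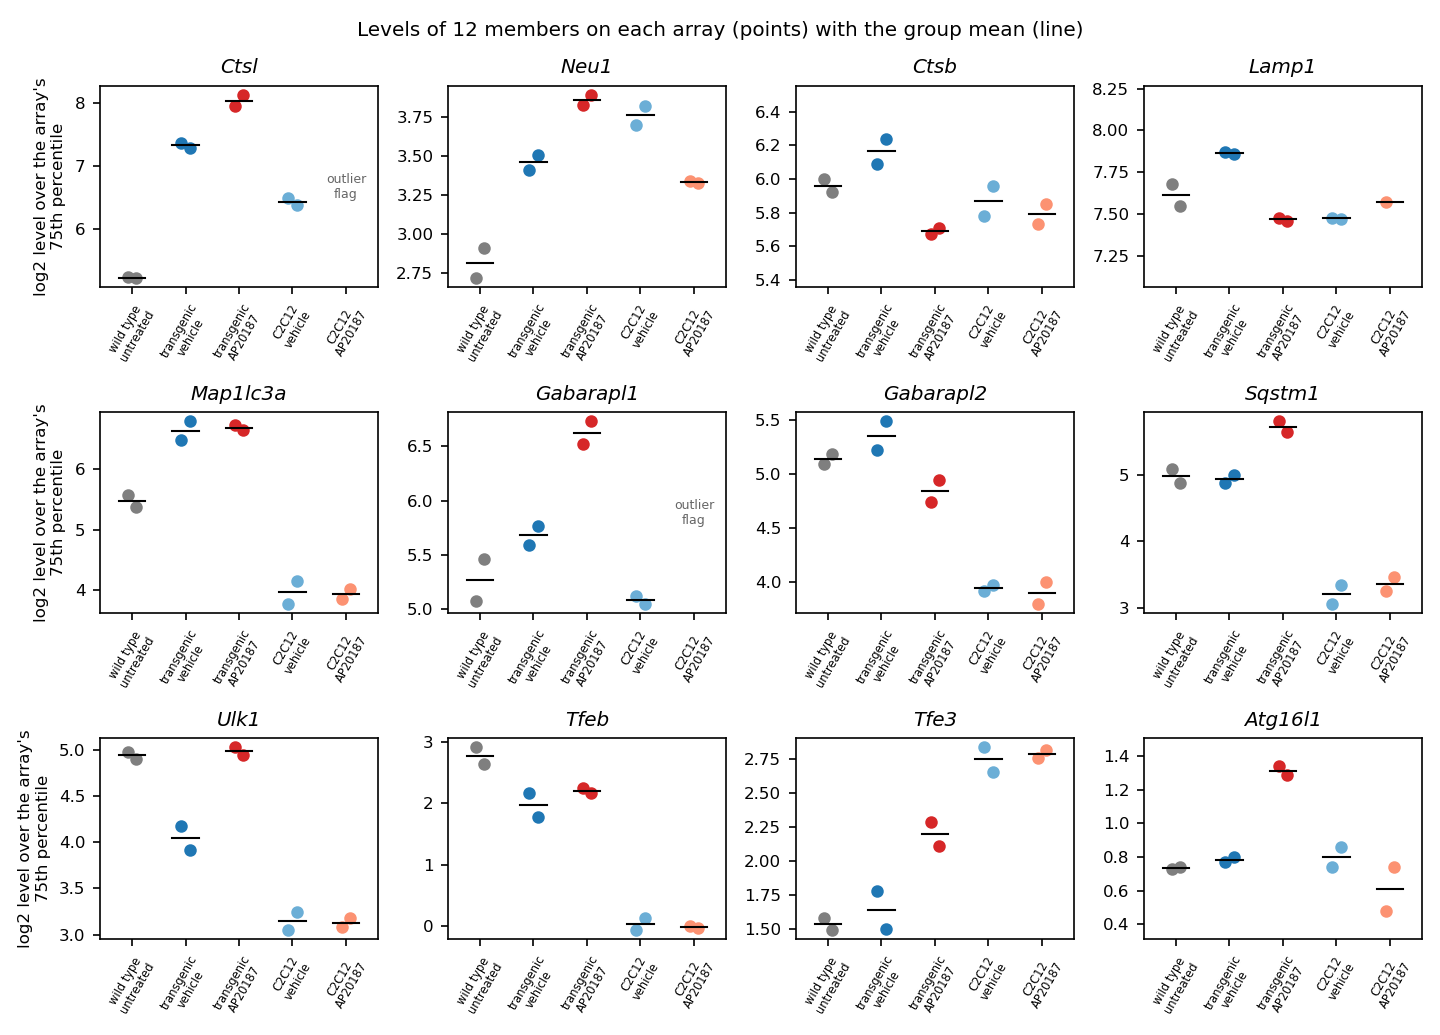
Each panel is a gene, each point an array and each line a group mean, on the log2 level over the array's 75th percentile. Panels have their own scale, each at least 1.2 log2 units high where the data span less. Ctsl steps up from wild type (5.22 and 5.21) to vehicle (7.37 and 7.29) to AP20187 (7.95 and 8.13), Ulk1 dips in vehicle, and Gabarapl1, Sqstm1, Tfe3 and Atg16l1 are highest among the muscle groups with AP20187.

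Of the lysosomal proteases, Ctsl had the largest change of the 32 genes in both comparisons with wild type. Ctsl encodes cathepsin L, a cysteine protease long known to rise in wasting muscle. It was at 5.22 and 5.21 in wild type, 7.37 and 7.29 in vehicle and 7.95 and 8.13 in AP20187 muscle, with no overlap between any of the 3 groups. The step from wild type to vehicle was 4.34-fold (log2 change 2.12, SE 0.10, adjusted p = 1.33e-05) and that from vehicle to AP20187 1.63-fold (log2 change 0.71, SE 0.10, adjusted p = 0.0025). AP20187 muscle was 7.09-fold above wild type (adjusted p = 1.30e-06).

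The other cathepsins did not follow it. Ctsb, cathepsin B, was at 6.00 and 5.92, 6.09 and 6.24, and 5.67 and 5.71, and fell by 0.48 with AP20187 (SE 0.09, adjusted p = 0.0094), or by 0.27 by quantile normalization (adjusted p = 0.032). Ctsd, the aspartic protease cathepsin D, was at 6.88 and 6.83, 7.26 and 7.28, and 7.23 and 7.11. It was 1.33-fold higher in vehicle than in wild type (adjusted p = 0.0095; -0.11 on the log2 scale by quantile normalization) and changed by -0.10 with AP20187 (adjusted p = 0.41). Ctsz, cathepsin Z, was at 3.32 and 3.16, 3.70 and 3.55, and 3.50 and 3.27, 1.31-fold higher in vehicle than in wild type (adjusted p = 0.034) and -0.24 with AP20187 (adjusted p = 0.15). The differences between vehicle and wild type were not called without wild type replicate 1 or 2 for Ctsd (adjusted p = 0.053 and 0.070) or without any 1 of these 4 arrays for Ctsz (adjusted p = 0.063 to 0.17).

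Both glycosidase genes were called higher in vehicle than in wild type muscle, Gaa only without quantile normalization, which turned it to -0.03. Neu1, the lysosomal sialidase, was at 2.72 and 2.91 in wild type, 3.41 and 3.51 in vehicle and 3.83 and 3.89 in AP20187 muscle, so that each group lay above the one before it. The steps were 1.56-fold (log2 change 0.64, SE 0.10, adjusted p = 0.0025) and 1.32-fold (log2 change 0.40, SE 0.10, adjusted p = 0.023). The Neu1 rise with AP20187 was not called without any 1 of the 4 transgenic arrays (adjusted p = 0.063 to 0.090). Gaa, the acid alpha-glucosidase that degrades glycogen and is lost in Pompe disease, was at 7.02 and 6.95, 7.55 and 7.43, and 7.55 and 7.52. It was 1.42-fold higher in vehicle than in wild type muscle (adjusted p = 0.0041) and its change with AP20187 was within its error (0.04, SE 0.09).

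Lysosomal membrane genes split as well. Lamp2, whose loss causes the autophagic vacuolar myopathy Danon disease, was at 3.31 and 3.39, 3.95 and 4.17, and 3.91 and 4.06. It was 1.64-fold higher in vehicle than in wild type muscle (adjusted p = 0.0023), with -0.08 for AP20187 against vehicle. Lamp1, the other major glycoprotein of that membrane, was at 7.68 and 7.55, 7.87 and 7.86, and 7.48 and 7.46, and fell by 0.40 with AP20187 (SE 0.09, adjusted p = 0.016), a fall that was -0.15 and not called by quantile normalization (adjusted p = 0.21). It was not called without vehicle replicate 2 (adjusted p = 0.051) or either AP20187 replicate (adjusted p = 0.067 and 0.077). Mcoln1, the lysosomal calcium channel TRPML1, was not called in the muscle comparisons (0.0045 in vehicle against wild type and -0.16 with AP20187).

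Macrophages are rich in lysosomes. With AP20187 in muscle, 14 of 16 macrophage and leucocyte markers tested were called lower, beside 15% of all genes. Their median log2 change was -0.90, beside -0.11 over all genes. The summed level of that list was 49.7 to 52.3 in wild type, 42.9 to 47.6 in vehicle and 24.6 to 26.0 in AP20187 muscle. With AP20187 it fell as Ctsb and Lamp1 did, and its part in their falls was not tested. From wild type to vehicle muscle the sum also fell, but its markers were mixed. Csf1r went from a mean of 3.92 to 3.68 and Cd74 from 3.43 to 3.02. Adgre1 went from -0.68 to -0.27 and Lyz2 from 0.37 to 0.75. In that step Ctsb changed by 0.21 and Lamp1 by 0.25, neither called. Sums of the lymphocyte, endothelium, Schwann cell, erythroid and skeletal muscle lists were also lower on both AP20187 arrays than on both vehicle arrays. A sum weighs the brightest markers most, and not every marker of these lists fell. From vehicle to AP20187, endothelial Kdr went from a mean of 4.97 to 3.43, but Cdh5 from 2.54 to 2.59. In the muscle list, Acta1 went from 11.1 to 10.8, but Myog from 1.95 to 5.4. Those of the fibroblast, adipocyte and vascular smooth muscle lists overlapped. On C2C12 arrays, the macrophage and leucocyte sum was 3.87 to 4.74. Of the 17 markers on the array, 8 (Adgre1, C1qc, Tyrobp, Mrc1, Lyz2, Cd163, Laptm5 and Ctss) were well above background on none of the 4 C2C12 arrays, and 3 (Csf1r, Cd74 and Cd14) on all 4. There Ctsb read 5.73 to 5.96 and Lamp1 7.47 to 7.57 over the 3 arrays without a flagged spot (7.13 on the other, AP20187 replicate 2, with that spot kept), and on the muscle arrays they read 5.67 to 6.24 and 7.46 to 7.87.

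Several of these changes depended on how the arrays were scaled. Between transgenic vehicle and wild type muscle, quantile normalization moved the change of each of the 32 genes downward, by 0.02 to 0.59, and most for the brightest probes. The sign changed for 13 of the 32. Of these, Map1lc3b, Ctsd and Gaa had been called and went from 0.32, 0.41 and 0.51 to -0.06, -0.11 and -0.03, and Lamp1 went from 0.25, not called, to called lower (-0.33, adjusted p = 0.014). With the percentile over detected probes, Ctsd was not called either (adjusted p = 0.057). Ctsl (1.74), Map1lc3a (0.78), Atg4b (0.73), Atg5 (0.52), Lamp2 (0.51), Atg10 (0.49) and Neu1 (0.45) stayed called higher, and Ulk1 (-1.11) and Tfeb (-0.94) lower. Gabarap (0.20), Bnip3 (0.20), Bnip3l (0.20) and Ctsz (0.18) kept their sign and lost their call. For all genes the calls split into 3479 higher and 1706 lower in the scaling used and into 2629 and 2316 by quantile, or 2313 and 2619 with the percentile taken over detected probes, which lowered every one of the 32 genes by 0.16. For AP20187 against vehicle the split of all genes was 1937 higher and 2027 lower against 2076 and 1209 by quantile, and the median of all genes moved from -0.11 to -0.01. The wild type arrays were scanned on another slide and in another session than the transgenic ones, so slide and genotype cannot be told apart, whereas vehicle and AP20187 muscle shared a slide and session. A fit on the 4 transgenic arrays alone called 10 of the 32 genes for AP20187.

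**Figure D4:**
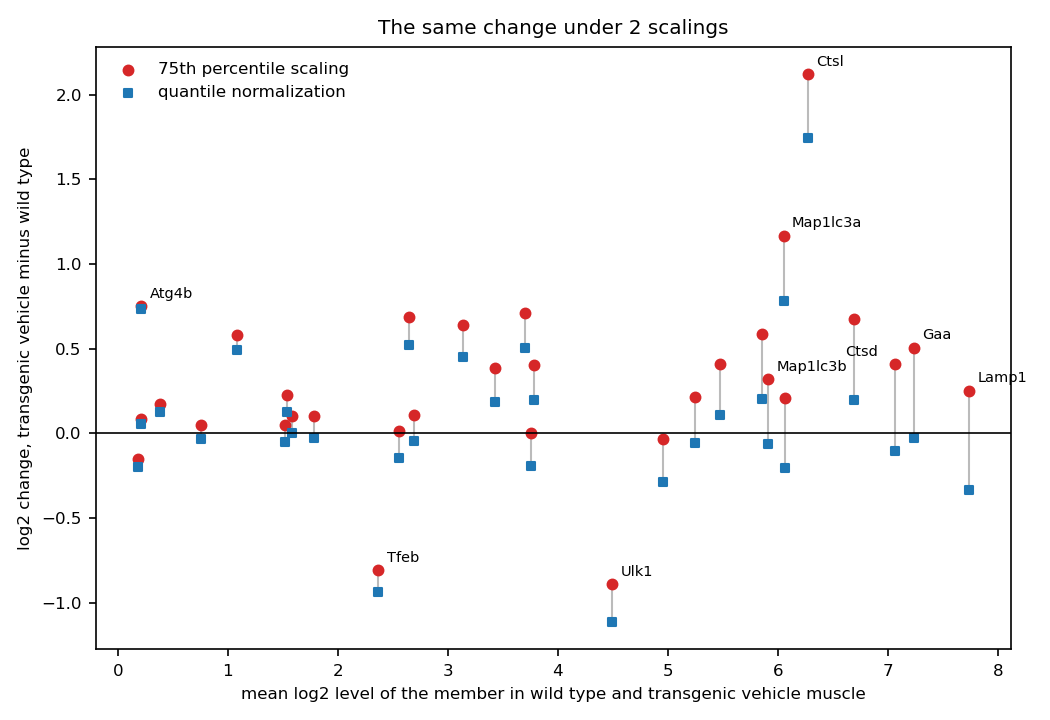
Each gene has a red point (75th percentile scaling) and a blue square (quantile normalization) joined by a line, with the mean log2 level in wild type and vehicle muscle on the x axis and the log2 change between them on the y axis. The lines lengthen toward bright genes, reaching 0.59 for Lamp1, and 13 of the 32 lines cross 0, those of the called genes Map1lc3b, Ctsd and Gaa among them.

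Promoter windows of 300 bases around the annotated start were available for 25 of the 32 genes in RefSeq's GRCm38.p6 annotation, with 29 windows in all. The 6 letters CACGTG, the E-box core that TFEB and TFE3 bind within the lysosomal element, were found in windows of 9 of these 25 genes (36%), and in those of 8.09% of all 27025 genes with a window. They were in 5 of 8 lysosomal and 4 of 15 autophagosome genes. The longer TCACGTGA, which contains the E-box, was in 3 genes, Atg3, Ctsd and Mcoln1, and in 1.12% of all genes. TGATGNAA, on either strand, the kind of core that C/EBP-ATF sites hold, was found for Ctsl alone and in 4.51% of all genes, and TGACGTCA, the cyclic AMP response element, for Atg5 alone and in 2.03%. None of the 4 motifs was in the windows of Gabarapl1, Sqstm1, Ulk1, Neu1 or Tfe3. The Ctsl window ends, just before its annotated start, in a pyrimidine-rich stretch and AG, the letters of a splice acceptor, and is not shown.

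The stretches with the densest E-boxes among the lysosomal genes, and that of Atg3, are shown because they hold the letters read by the 2 transcription factors above. They run 5′ to 3′ on the gene's strand and end at the base before the annotated start, with every match in capitals. The build is GRCm38.p6. Lamp1 is chr8:13159041-13159160 on the plus strand, Ctsd chr7:142387828-142387947 on the minus strand, Mcoln1 chr8:3500399-3500518 on the plus strand, Atg3 chr16:45158709-45158828 on the plus strand and Gaa chr11:119267813-119267962 on the plus strand.
Lamp1: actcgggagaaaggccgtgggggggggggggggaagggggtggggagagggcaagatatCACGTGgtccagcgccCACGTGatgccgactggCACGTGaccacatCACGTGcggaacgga
Ctsd: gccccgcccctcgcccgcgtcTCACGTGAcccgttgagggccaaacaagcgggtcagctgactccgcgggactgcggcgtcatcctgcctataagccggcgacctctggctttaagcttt
Mcoln1: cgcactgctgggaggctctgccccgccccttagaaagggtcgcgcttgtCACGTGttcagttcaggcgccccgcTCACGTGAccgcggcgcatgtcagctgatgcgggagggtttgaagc
Atg3: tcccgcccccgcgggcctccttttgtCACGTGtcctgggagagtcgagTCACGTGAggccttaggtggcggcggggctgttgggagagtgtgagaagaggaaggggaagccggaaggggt
Gaa: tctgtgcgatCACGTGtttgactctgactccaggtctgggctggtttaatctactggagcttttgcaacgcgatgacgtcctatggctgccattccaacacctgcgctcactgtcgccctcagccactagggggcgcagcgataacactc
Lamp1 has 4 E-boxes within 61 bases of its start and fell by 0.40 with AP20187. That call was lost by quantile normalization and on leaving out some arrays, as given above. Mcoln1, with an E-box at position -71 and the longer element at -46, was not called. Atg3, with an E-box at -94 and the longer element at -72, was not called for AP20187 against vehicle. Ctsd, with the longer element at -99, and Gaa, with an E-box at -140, were called higher in vehicle than in wild type muscle, with the exceptions given above for scaling and left-out arrays. Of the 9 genes with an E-box, 5 were called higher in that comparison, 0 lower, and of the 16 without, 7 higher and 2 lower. For AP20187 against vehicle in muscle, 1 was higher and 1 lower with an E-box, and 5 and 1 without. For AP20187 against wild type, the counts were 7 and 0 with an E-box, and 7 and 1 without. A match describes letters and not binding.

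In C2C12 cells no member was called with AP20187. Of the 30 with a value, 0 passed in limma, and 0.482% of all 11406 genes tested did (36 higher and 19 lower). Only 1 of the 30, Neu1, had an unadjusted p under 0.05, with a change of -0.42 (SE 0.12, adjusted p = 0.16). It was at 3.70 and 3.82 with vehicle and 3.34 and 3.33 with AP20187, with no overlap, and the sign was opposite to that in muscle. Of 11120 genes compared in the cells, 3337 had both AP20187 arrays below both vehicle arrays and 1848 above. The changes ran from -0.42 to 0.21, with a median of -0.06 for the members and -0.06 for all genes, and standard errors were 0.12 to 0.23.

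The genes that rose in muscle read as follows in the cells. Ulk1 was at 3.05 and 3.24 with vehicle and 3.08 and 3.18 with AP20187, so the groups overlapped. Sqstm1 was at 3.06 and 3.35, then 3.26 and 3.46, a change of 0.15 (SE 0.14, adjusted p = 0.65). Atg16l1 was at 0.74 and 0.86, then 0.48 and 0.74. Tfe3 was at 2.84 and 2.66, then 2.76 and 2.82. In these 4 genes the vehicle and AP20187 arrays overlapped or met. Pik3c3, which rose slightly in muscle, was at -0.89 and -0.51, then -1.01 and -0.91, a change of -0.26 (adjusted p = 0.63) with no overlap and the opposite sign. A dimmer Pik3c3 probe gave 0.17 in the cells and 0.49 in muscle, the same sign in both. Gabarapl1 and Ctsl had outlier flags on both C2C12 AP20187 arrays and were left out there, as were 2.37% and 2.00% of gene spots on these arrays against 0.376% or less on the other 8. With flagged spots kept, Gabarapl1 was at 5.12 and 5.05 with vehicle and 5.25 and 5.02 with AP20187, and Ctsl at 6.49 and 6.37, then 6.49 and 6.65, with neither called (adjusted p = 0.90 and 0.63). Lamp1 had a flag on AP20187 replicate 2, so its value in the count of 30 rests on 1 array in that group, assumed to vary like the others. The vehicle arrays were in row 1 of the slide and the AP20187 arrays in row 2, so row and treatment cannot be told apart. Adipocyte markers also rose in these cells, with a summed level of 0.82 to 1.07 on vehicle and 7.96 to 11.3 on AP20187 arrays, and their part in the members' values was not tested.

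The AP20187 change itself differed between muscle and C2C12 for 3 of 30 members, 3 higher and 0 lower in muscle, with 12% of all genes called (8.02% higher and 4.02% lower). The difference in log2 change was 0.95 for Ulk1 (SE 0.16, adjusted p = 0.0048), 0.82 for Neu1 (SE 0.14, adjusted p = 0.0055) and 0.72 for Atg16l1 (SE 0.18, adjusted p = 0.029). Sqstm1 was just outside, with 0.62 (SE 0.18, adjusted p = 0.052), and Tfe3 gave 0.52 (adjusted p = 0.081). The Atg16l1 call ended on leaving out 6 of the 10 arrays in turn (adjusted p = 0.063 to 0.090). The count was 5 without C2C12 vehicle replicate 1 and 5 with flagged spots kept, when Gabarapl1 gave 0.90 (adjusted p = 0.017) and Ctsl 0.56 (adjusted p = 0.034). Lower calls appeared under other settings, with 2 members higher and 3 lower when the percentile left out flagged spots, 4 and 2 with the percentile over detected probes, 4 and 1 for genes detected on every array, and 5 and 3 with the replicate block. The drug was injected at 1 ng/g in mice and added at 100 nM to cells, so the exposures were not matched.

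Levels in the tissue and the cells differed for nearly every member. Transgenic vehicle muscle against C2C12 vehicle gave 22 higher and 8 lower of 32, and 78.7% of all genes were called (40.2% higher and 38.5% lower). The session and the culture differ with the tissue and cannot be told apart. The scanner headers gave the transgenic muscle and C2C12 sessions the same slide identifier, with 2 positions in common. The sessions were therefore treated as different slides, and whether they were is not known. Gaa, at 7.55 and 7.43 in vehicle muscle and 4.04 and 4.00 in the cells, was 11.1-fold higher in muscle. Map1lc3b was at 6.05 and 6.09 against 3.04 and 3.09, an 8.02-fold difference, and Bnip3 at 6.94 and 7.13 against 4.3 and 4.3, a 6.66-fold difference. Map1lc3a (6.40-fold), Atg10 (4.91-fold), Tfeb (3.80-fold), Sqstm1 (3.33-fold) and Gabarapl2 (2.65-fold) were also higher in the tissue. Ctsz (2.20-fold), Atg12 (2.19-fold) and Tfe3 (2.16-fold) were higher in the cells, so Tfeb and Tfe3 ran in opposite directions between tissue and cells. Among the 5 initiation and nucleation genes all 5 were higher in muscle, and among the 7 conjugation genes 3 were higher and 3 lower. Ctsb, Ctsd and Lamp1 changed sign by quantile normalization (-0.19, -0.21 and -0.18), and Gabarap and Atg7 with the mean over probes (0.05 and 0.22). Over all 5 groups, the highest mean was in transgenic vehicle muscle for 12 of the 32 genes, in AP20187 muscle for 11, in a C2C12 group for 8 and in wild type muscle for 1, which was Tfeb.

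Beyond these 32 genes, a list of other autophagy genes gave 14 higher and 5 lower of 40 tested with AP20187 in muscle, with a median of 0.14, beside 14.3% higher and 15% lower and a median of -0.11 over all genes. Retreg1, the endoplasmic reticulum-phagy receptor FAM134B, rose 2.27-fold (adjusted p = 0.00042), Trp53inp1, a stress protein that binds LC3, 2.27-fold (adjusted p = 0.00081), and Nrbf2, a subunit of the class III kinase complex, 1.84-fold (adjusted p = 0.0013). Fundc1, a mitophagy receptor, fell by 0.89 (adjusted p = 0.0036), and Trp53inp2 by 0.43 and Rab7, the GTPase of late endosomes, by 0.41. The last 2 calls ended without vehicle replicate 2 (adjusted p = 0.053 and 0.056), among other arrays. The AP20187 change was also higher in muscle than in C2C12 for 10 of these 40, beside 8.02% of all genes, Retreg1 (1.34), Trp53inp1 (1.63) and Nrbf2 (0.96) among them, and lower for 1, beside 4.02%, Fundc1 (-0.83; adjusted p = 0.060 without transgenic vehicle replicate 2 and 0.054 without transgenic AP20187 replicate 1). Vmp1, a membrane protein needed to form autophagosomes, was the gene of this list with the smallest p in vehicle against wild type (1.86-fold, adjusted p = 0.00093). There the list gave 9 higher and 4 lower, beside 25.7% and 12.6% of all genes, or 6 and 9 by quantile normalization.

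Of 33 other lysosomal hydrolases, 0 were called higher and 8 lower, beside 14.3% and 15% of all genes, with a median of -0.26 beside -0.11, and by quantile normalization 0 and 6. Ctss fell by 0.78 (adjusted p = 0.0076), Lgmn (legumain) by 0.59 (adjusted p = 0.0076) and Ctsk, the collagen-degrading cathepsin K, by 0.58 (adjusted p = 0.010). Without vehicle replicate 2 the Ctss fall was not called (adjusted p = 0.052), nor that of Ctsk without vehicle replicate 1 (adjusted p = 0.051). Ctss is also in the macrophage list, whose summed level went from 42.9 to 47.6 in vehicle to 24.6 to 26.0 in AP20187 muscle, and its part in these falls was not tested. Against wild type, vehicle muscle had 7 hydrolases higher and 1 lower, beside 25.7% and 12.6% of all genes, led by Sgsh (1.72-fold), Fuca1 (1.62-fold) and Idua (1.68-fold), enzymes that degrade heparan sulfate, fucosylated glycans and glycosaminoglycans.

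Of 22 other lysosomal membrane and accessory genes, 2 were higher and 3 lower with AP20187, beside 14.3% and 15% of all genes. The lower ones were Laptm4a (-0.55, adjusted p = 0.0048), Laptm4b (-0.51, adjusted p = 0.012) and Tmem192 (-0.44, adjusted p = 0.021). The last 2 calls each ended on leaving out 2 of the 6 muscle arrays in turn. Npc1, the lysosomal cholesterol exporter, was lower in vehicle than in wild type muscle (-1.42, adjusted p = 0.0011) and rose 1.75-fold with AP20187 (adjusted p = 0.017), a rise not called without vehicle replicate 2 (adjusted p = 0.084) or AP20187 replicate 1 (adjusted p = 0.061). The subunits of the v-ATPase, the proton pump that acidifies the lysosome, gave 10 higher and 1 lower of 17 in vehicle against wild type. All genes gave 25.7% higher and 12.6% lower there. The median of the subunits was 0.36, or 0.17 by quantile normalization, beside 0.09 and 0.01 over all genes. With AP20187, 1 of the 17 was higher and 4 lower, beside 14.3% and 15% of all genes. The 1 higher was Atp6v1h, at 2.38-fold in vehicle against wild type (adjusted p = 0.0018) and a further 3.62-fold with AP20187 (adjusted p = 0.00088).

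Regulators upstream of autophagy gave 3 higher and 3 lower of 25 with AP20187, beside 14.3% and 15% of all genes. Lamtor1, 1 of the 3 lower, fell by 0.30 (adjusted p = 0.033), a call that ended without any 1 of the 6 muscle arrays. Mlst8, a subunit of the mTOR complexes, rose 1.81-fold (adjusted p = 0.0011), Zkscan3, described as a repressor of autophagy genes, 1.88-fold (adjusted p = 0.0044), and Flcn (folliculin) 1.56-fold (adjusted p = 0.0056). Mean Flcn was 3.4 in wild type, 2.9 in vehicle and 3.6 in AP20187 muscle, so its rise began from a vehicle level below wild type. Rragd, a Rag GTPase gene that TFEB is known to act on, was lower in vehicle than in wild type muscle (-1.30, adjusted p = 0.00054) and fell by a further 0.54 with AP20187 (adjusted p = 0.025), which was not called without 5 of the 6 arrays in turn (adjusted p = 0.050 to 0.092). Prkaa2, the muscle catalytic subunit of AMPK, fell by 0.42 (adjusted p = 0.031), and not without vehicle replicate 1 (adjusted p = 0.13) or AP20187 replicate 2 (adjusted p = 0.14).

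**Figure D5:**
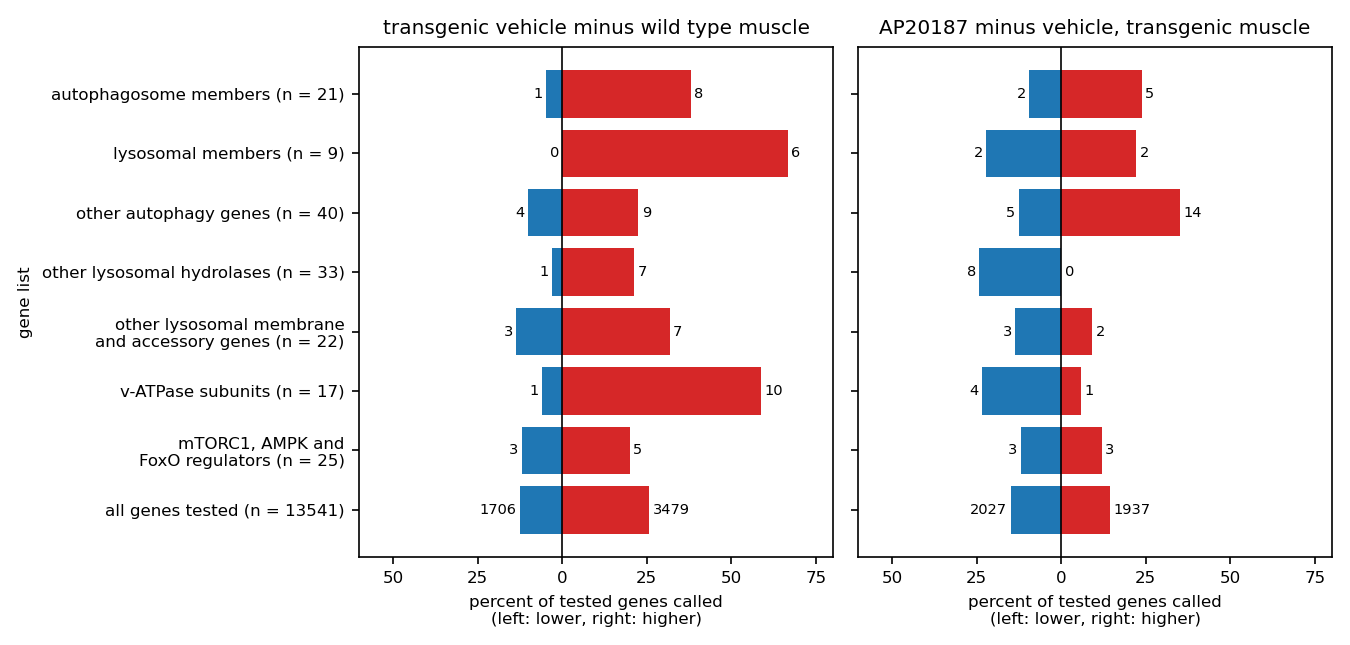
Bars give the percent of tested genes of each list called higher (right, red) or lower (left, blue), with the number called beside each bar, for vehicle against wild type muscle (left panel) and AP20187 against vehicle (right panel). The bottom bars are all 13541 genes tested. With AP20187 the other autophagy genes have 14 called higher and 5 lower, and the other lysosomal hydrolases 0 higher and 8 lower.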

How the data were processed

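Each of the 10 arrays was a single-colour Cy3 Agilent array hybridised with cRNA from 150 ng of RNA, per the labels' protocols. The authors deposited 1 scanner file per array, whose processed intensity Agilent Feature Extraction 10.7.1.1 made by background subtraction, per the file headers. They also deposited a table of log2 values, used only as an alternative: its differences between arrays followed the scanner's at r of 0.9998 or more, so its scale is log2 and its direction is settled, and its centring is unknown. Its column medians were -0.46 and -0.45 (wild type), -0.42 and -0.35 (vehicle), -0.37 and -0.57 (AP20187), 0.34 and 0.70 (C2C12 vehicle) and 0.80 and 0.77 (C2C12 AP20187).

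Control spots (3671 of 62976) and outlier-flagged spots (0.160% to 2.37% of gene spots) were left out. No gene spot was saturated. Spots of a probe were averaged, and log2 intensity was scaled to each array's 75th percentile. That percentile was taken over all gene spots, outlier-flagged ones included. A RefSeq gene table of GRCm38.p6 named 26056 of 55681 probes by accession, ignoring version suffixes. A gene was represented by the probe with values on all arrays and the highest mean. Genes well above background on every array of at least 1 group in the fit were tested with limma 3.58.1 in R 4.3.3 (group means, moderated with a variance trend), over the 6 muscle arrays, the 4 C2C12 arrays, or all 10 for the difference and for levels between systems, with Benjamini-Hochberg adjustment over all genes tested and calls under 0.05. The script was tested on simulated data. The number of arrays, 2 a group, limits the precision. Fold changes are 2 to the power of the log2 change. Tables and figures used Python 3.11.15.

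The genes and lists were chosen with earlier results of these data known. All 32 genes are reported, array by array where called in a comparison of treatment or genotype. From each other list, up to 3 called genes of smallest p in each direction could be named. Up to 3 markers of a cell type list could be named too. Macrophage markers were also named by their detection in C2C12 or the direction of their change, and Myog by its rise. These were chosen after their values were seen. Alternatives covered background correction, normalization, the filter on dim probes, the probe rule, flagged spots, the authors' table, the variance trend, the arrays in the fit, a replicate block and each replicate left out. The mean signal column needed for normexp was not in the files used, and the median signal replaced it. Replicate numbers tie no arrays by label. Replicate-number deviations correlated at 0.19, 0.31 and 0.35 between muscle groups and 0.02 between C2C12 groups.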

Additional observations from a re-analysis of the deposited data

Results flagged for a closer look

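The response to AP20187 differed between transgenic muscle and C2C12 cells for 3 of 30 genes by the test of the difference itself (limma, adjusted over all genes tested). Of all genes, 12% were called in that test. For Ulk1 the log2 change in muscle exceeded that in the cells by 0.95, with 0.94 in muscle and -0.01 in C2C12. For Neu1 it did so by 0.82, with 0.40 in muscle and -0.42 in C2C12. For Atg16l1 it did so by 0.72, with 0.53 in muscle and -0.19 in C2C12, a call that ended on leaving out 6 of the 10 arrays in turn. In each case both AP20187 muscle arrays were above both vehicle arrays. That was so for 3678 of all 13539 genes compared, and a call for a higher change makes it likely.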

How the results depend on the processing

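The number of the 32 genes called stayed within 1.5 times the main count under every alternative that kept all arrays, except where stated here. For vehicle against wild type muscle it was 10 by quantile normalization against 16. For the difference between muscle and C2C12 it was 3, and 5 with normexp, 6 with the percentile over detected probes, 5 with the percentile without flagged spots, 5 for genes detected on every array, 5 with flagged spots kept and 8 with the replicate block, of which 0, 2, 3, 1, 0 and 3 were lower. The percentile without flagged spots and normexp on median signals were chosen after seeing the data. Leaving out a replicate gave 6 to 10 calls for AP20187 in muscle (6 without transgenic vehicle replicate 2 and 7 without transgenic AP20187 replicate 1), 10 to 16 for vehicle against wild type (10 without wild type replicate 1), 13 to 17 for AP20187 against wild type, 0 in C2C12, 2 to 5 for the difference (5 without C2C12 vehicle replicate 1) and 25 to 29 between muscle and C2C12. A single array left in a group was assumed to vary like the others. Among called genes, signs changed by quantile normalization for Map1lc3b (-0.063), Ctsd (-0.11) and Gaa (-0.027) in vehicle against wild type and for Ctsb (-0.19), Ctsd (-0.21) and Lamp1 (-0.18) between muscle and C2C12, and with the mean over probes for Gabarap (0.050) and Atg7 (0.22) there. The cause was not tested. Of the genes called, 6 of 12 kept their call under every alternative run for AP20187 in muscle (Lamp1, Becn1, Pik3c3, Gabarapl2, Neu1 and Tfe3 lost it at least once), 7 of 16 for vehicle against wild type, 10 of 18 for AP20187 against wild type, 2 of 3 for the difference and 21 of 30 between systems. The replicate block gave 18, 20, 21, 0, 8 and 30 calls in the order AP20187 in muscle, vehicle against wild type, AP20187 against wild type, C2C12, the difference and muscle against C2C12. The replicate numbers are not known to pair arrays. Slide and session as a block were not run, since each group lies on 1 slide. Normexp on the mean signal was not run, since that column was not in the files used.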
